A study of Mus musculus with 6 samples.

Results

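Imprinted genes were followed from mouse embryonic stem cells (ESCs) to epiblast-like cells (EpiLCs), a culture model of the epiblast just after implantation. The set was a list of 41 gene symbols, named for their known imprinting, and all 41 had a row among the 24736 genes of the expression table. Of the members, 25 are known for expression from the paternal allele and 16 for expression from the maternal allele. For Ube3a this is known from neurons, and the allele used in the cells studied here was not measured for any member. The study asked how SOX2 levels shape the response of such cells to WNT, and the RNA-seq libraries used here were 3 of WT ESCs (0 h) and 3 of WT EpiLCs (48 h). Both groups carried the WT genotype of the XY HM1 TetON line, which holds a transactivator transgene at Rosa26. ESCs were propagated on mouse embryonic fibroblast feeders in medium with serum and LIF. Before differentiation they were freed of feeders by repeated short plating, in which feeders stick to the dish. Whether the ESCs taken for RNA went through this step is not given in the sources used here. EpiLCs were made from them by culture in N2B27 medium with bFGF and LGK974, an inhibitor of WNT secretion, so that serum, LIF, feeders and time changed together and their contributions cannot be told apart. All libraries came from 1 cell line, and the labels call them biological replicates. The methods of the study state, for its statistics in general, that the data are from separate experiments, and which cultures or days each library came from is not given in the sources used here.

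At an imprinted locus one parental allele is silenced, and a DNA methylation mark laid down in the egg or the sperm, at an imprinting control region, tells the alleles apart. Many imprinted genes lie in domains where 1 control region governs several genes, often through a long non-coding RNA or a boundary bound by CTCF. In the embryo they are known for dosage-sensitive control of growth and of placental, neural and metabolic functions, and ESC cultures are known for variable imprinted expression. The counts here carry no allele information, so a higher level can come from either allele or from both.

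Total expected counts per library were between 16967741 and 35096210, and 3 counts, taken as the detection limit, corresponded to between 0.0855 and 0.177 CPM (counts scaled to the library total). Such limits cover counting error only. The labelled identities were checked with marker lists. The summed level of 7 naive ESC markers was between 1519 and 2011 TPM (transcript abundance scaled for transcript length and library) in ESCs and between 49.5 and 68.9 TPM in EpiLCs. For 5 EpiLC markers the sums were between 293 and 399 TPM in ESCs and between 2055 and 2125 TPM in EpiLCs. All 7 of the former were lower and all 5 of the latter higher in EpiLCs. Genes known as fibroblast markers were also detected, most in the ESC libraries. The sum of 15 fibroblast markers stood at 1326 TPM in ESC replicate 1, 3060 TPM in replicate 2 and 712 TPM in replicate 3, but only between 157 and 225 TPM in EpiLCs, with 8 of the 13 tested markers lower in EpiLCs. Fn1, a gene other cells express too, made up most of the sum in ESC replicates 1 and 3, at 911 and 561 TPM, and was at 1240 TPM in replicate 2. Col1a1 was at 90.5, 489 and 28.3 TPM in ESCs and between 3.08 and 13.9 TPM in EpiLCs. Thy1 (0.05), Dcn (-0.14), Postn, Col3a1 and Acta2 were not called, and Lum and Fap were too low to be tested. Of 7 trophoblast markers, with sums between 216 and 407 TPM in ESCs and between 102 and 137 TPM in EpiLCs, 6 were tested, 4 were lower and 1 higher. Of 7 primitive endoderm markers, between 39.5 and 72.9 TPM against 10.7 to 11.2 TPM, 5 were lower. Since these are bulk samples, fewer cells of a type and less RNA per cell cannot be told apart.

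Across all genes, 38 of the 41 members passed edgeR's filter on low counts and were tested for a difference between the groups. A gene was called at an adjusted p of at most 0.05 in edgeR's quasi-likelihood test with Benjamini-Hochberg adjustment over the 14468 genes tested. Of the 38 members, 11 were higher in EpiLCs (28.9%, against 22.6% of all genes tested) and 10 were lower (26.3%, against 22.8%). The other 17 were not called, so 55.3% of the tested members were called, against 45.4% of all genes. By the size of change, 7 members were called with a log2 fold change above 1, where 8.78% of all genes were, and 8 with one below -1, where 11.5% were. The median absolute log2 fold change was 0.61 for the members and 0.38 for all genes, while the median signed value was -0.04 for the members and -0.0017 for all genes. Without EpiLC replicate 1, 2144 genes were higher and 2100 lower, and among the members 9 and 7. Of 22 tested genes of the paternal list 7 were higher and 5 lower, and of 16 of the maternal list 4 were higher and 5 lower. The summed level of the 41 members was between 2276 and 2949 TPM in ESCs and between 3333 and 3628 TPM in EpiLCs.

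**Figure D1:**
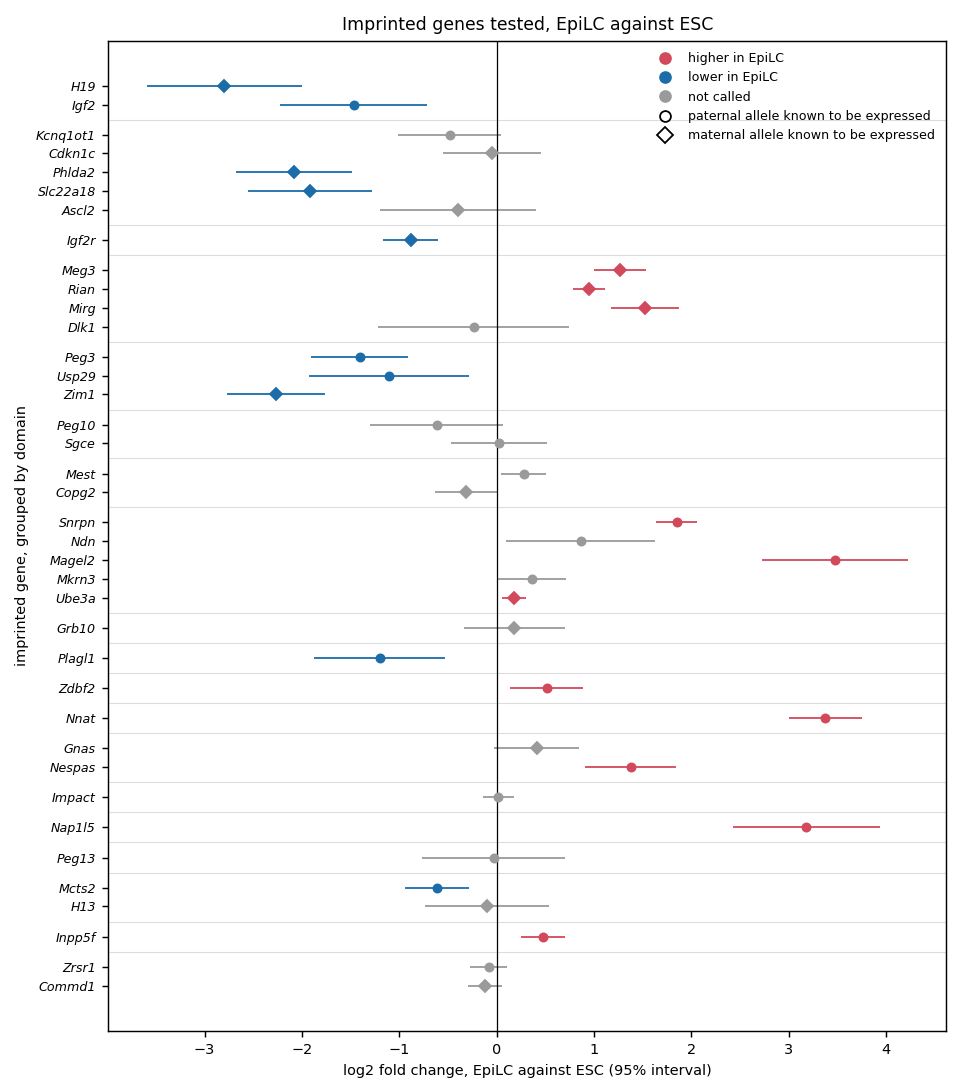
Log2 fold change of each of the 38 tested imprinted genes in EpiLCs against ESCs (x axis) with its 95% interval as a bar, grouped by domain (y axis) and coloured by the call at an adjusted p of 0.05; circles are genes known for paternal and diamonds genes known for maternal expression. The values ran from -2.80 (H19) to 3.48 (Magel2), and all 3 genes of the Peg3 domain and both of the H19/Igf2 domain lay to the left of 0.

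By domain, the called members were unevenly spread, beside 22.6% of all genes higher and 22.8% lower. Both genes of the H19/Igf2 domain and all 3 of the Peg3 domain were lower in EpiLCs, Usp29 among them in only 8 of 14 alternatives. In the Kcnq1 domain 2 of 5 genes were lower. In the Dlk1-Meg3 domain 3 of 4 tested genes were higher, and in the Snrpn-Ube3a domain 3 of 5 were, Ube3a in only 9 of 14 alternatives. No gene of the Peg10/Sgce, Mest/Copg2 or Zrsr1/Commd1 pairs was called. Genes of 1 domain share a control region and are not independent measurements.

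At the H19/Igf2 domain on chromosome 7 a boundary on the maternal allele sends shared enhancers to H19, a non-coding RNA, and methylation of the paternal allele sends them to Igf2, a fetal growth factor. H19 (chr7:142575530-142578146, minus strand, GRCm38) measured 85.7, 102 and 40.3 TPM in ESCs against 13.2, 10.8 and 9.81 TPM in EpiLCs, libraries being given here and below in the order of replicates 1, 2 and 3. Every EpiLC library was below every ESC library, and ESC replicate 3 was the lowest of its group. The log2 fold change was -2.80 (SE 0.34, adjusted p = 9.45e-04), the largest fall among the members. Igf2 (chr7:142650768-142666816, minus strand) was at 72.1, 73.2 and 50.7 TPM in ESCs and at 28.1, 13.8 and 32.4 TPM in EpiLCs. The groups did not overlap, and the EpiLC libraries differed among themselves by more than the ESC libraries did in proportion. Igf2 fell by 1.47 on the log2 scale (SE 0.32, adjusted p = 0.00985). Thus the maternally and the paternally expressed gene of the domain were both lower. Ranked by level, the ESC libraries of H19 came in the same order as by the fibroblast marker sum (replicate 2, then 1, then 3), and without ESC replicate 2 the log2 fold change of H19 was -2.53. The ESC libraries of Igf2 ranked the same way in TPM. The part of fibroblast RNA in both differences was not tested.

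H19 also encodes a microRNA within its exon. Mature microRNAs were not measured in these polyA libraries, so the sequences are shown only to identify what the transcript carries. They are from RefSeq on GRCm38.p6 (minus strand), with the seed, bases 2 to 8, in capitals.
miR-675-5p: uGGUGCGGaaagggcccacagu
miR-675-3p: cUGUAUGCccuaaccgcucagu

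The Kcnq1 domain, farther along chromosome 7, is silenced on the paternal allele by the long non-coding RNA Kcnq1ot1. Its placental growth restrictor Phlda2 (chr7:143501545-143503145) was at 129, 88.4 and 82.9 TPM in ESCs and at 21.1, 33.1 and 19.4 TPM in EpiLCs. All EpiLC libraries were below all ESC libraries, with a log2 fold change of -2.08 (SE 0.25, adjusted p = 9.71e-04). The trophoblast and the primitive endoderm marker sums ranked the ESC libraries as Phlda2 did (replicate 1, then 2, then 3). Single markers were mixed. Cdx2, Gata3, Gata4 and Dab2 had this order, whereas others did not, among them Krt8, Eomes, Tfap2c, Gata6 and Pdgfra. The part of such cells in the difference of Phlda2 was not tested. Its neighbour Slc22a18, a membrane transporter gene, was low throughout, at 2.37, 2.85 and 1.88 TPM in ESCs and at 0.61, 0.65 and 0.66 TPM in EpiLCs. It fell by 1.92 (SE 0.27, adjusted p = 0.00178; -1.03 on the log2(TPM + 1) scale), again without overlap, and its ESC libraries ranked as in the fibroblast marker sum. Cdkn1c, an inhibitor of cyclin-dependent kinases, was at 26.6, 18.2 and 14.3 TPM in ESCs and at 20.4, 20.2 and 18.4 TPM in EpiLCs. The EpiLC values lay inside the ESC range. Its log2 fold change was -0.05, with a 95% interval from -0.55 to 0.45 (adjusted p = 0.860). Neither Kcnq1ot1, with group means of 0.52 and 0.39 TPM, nor Ascl2, a trophoblast transcription factor gene at 2.54 and 2.01 TPM, was called. Without ESC replicate 2 Kcnq1ot1 was called lower, at -0.63 (adjusted p = 0.0458, against 0.117 with all libraries and between 0.0458 and 0.359 over the alternatives).

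On chromosome 17 Igf2r, a receptor that clears IGF2, is expressed from the maternal allele and silenced on the paternal allele by transcription of Airn across its promoter. Igf2r (chr17:12682406-12769706, minus strand) was at 40.1, 39.2 and 38.5 TPM in ESCs and at 23.2, 25.3 and 17.8 TPM in EpiLCs. The ESC libraries lay close together, and every EpiLC library was lower. The log2 fold change was -0.88 (SE 0.12, adjusted p = 0.00147). Airn, on the opposite strand, had 3, 12 and 4 expected counts in ESCs and 9, 2 and 7 in EpiLCs and did not pass the filter. No change of Airn was detectable at this depth.

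**Figure D2:**
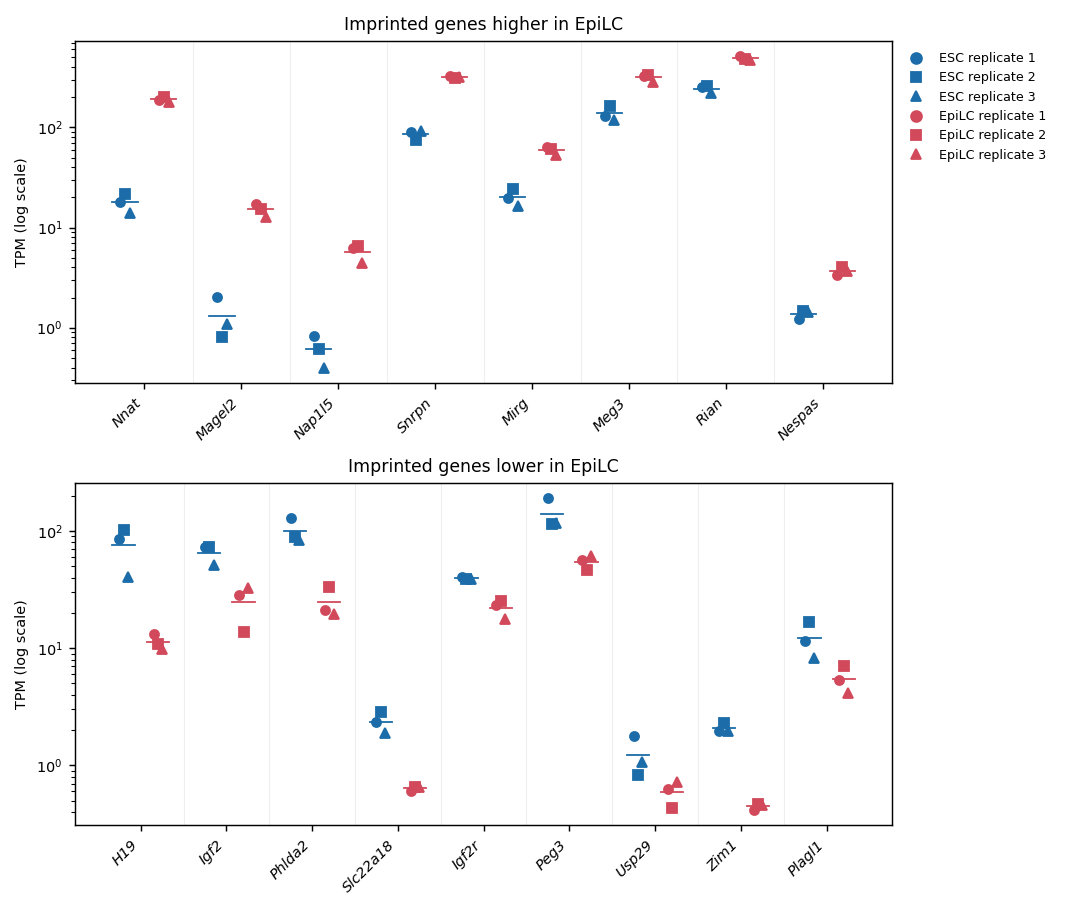
Level in TPM (y axis, log scale) of 8 imprinted genes higher in EpiLCs (top) and 9 lower in EpiLCs (bottom) in each of the 6 libraries; symbols give the replicate and lines the group means. In each gene plotted the ESC and the EpiLC libraries did not overlap, for example H19 at 40.3 TPM or more in ESCs and 13.2 TPM or less in EpiLCs.

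In the Dlk1-Meg3 domain on chromosome 12 the maternal allele makes a chain of non-coding RNAs and the paternal allele makes the coding genes Dlk1 and Rtl1. All 3 non-coding RNAs were higher in EpiLCs. Meg3 (chr12:109540996-109571729, plus strand), the first of the chain, was at 129, 165 and 119.9 TPM in ESCs and at 325, 336 and 285 TPM in EpiLCs. Rian (chr12:109603945-109661716), which hosts small nucleolar RNAs, was at 253, 257 and 222 TPM in ESCs and at 513, 484 and 471 TPM in EpiLCs. Mirg (chr12:109734981-109749458), at the far end, was at 19.6, 24.0 and 16.6 TPM in ESCs and at 63.5, 61.5 and 53.4 TPM in EpiLCs. For none of the 3 did the groups overlap. The log2 fold change was 1.27 for Meg3 (SE 0.11, adjusted p = 3.12e-04). It was 0.95 for Rian (SE 0.07, adjusted p = 1.64e-04). For Mirg it was 1.52 (SE 0.15, adjusted p = 4.28e-04). In all 3 the ESC libraries ranked as in the fibroblast marker sum, and the part of fibroblast RNA in these levels was not tested.

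The coding genes of the same domain gave another picture. Dlk1, a non-canonical NOTCH ligand, was near 2 TPM, at 2.10, 2.82 and 0.91 TPM in ESCs and 1.20, 1.65 and 2.23 TPM in EpiLCs. These ranges overlapped, and the log2 fold change of -0.24 had a 95% interval from -1.22 to 0.74 (adjusted p = 0.665). Rtl1, a retrotransposon-derived gene antisense to the chain, had at most 2 expected counts in any library and did not pass the filter.

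The chain is best known as a precursor of microRNAs. Of the hairpins of RefSeq, Mirg held 10, Rian 3 and Meg3 1 on their own strand, and Rtl1 held 2 on the opposite strand. A few mature forms are printed to show what the rising transcripts carry, all from chromosome 12, plus strand, GRCm38.p6, with bases 2 to 8 in capitals. miR-453 and miR-496a-5p, both within Mirg, were the only mature forms hosted by members that shared a seed.
miR-770-5p (Meg3): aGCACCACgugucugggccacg
miR-370-3p (Rian): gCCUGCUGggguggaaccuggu
miR-453 (Mirg): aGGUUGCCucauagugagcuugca
miR-496a-5p (Mirg): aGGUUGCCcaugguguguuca
miR-369-3p (Mirg): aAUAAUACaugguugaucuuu
miR-410-3p (Mirg): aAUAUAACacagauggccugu

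The paternally expressed Peg3 and Usp29 and the maternally expressed Zim1 lie together near the start of chromosome 7. Peg3 (chr7:6703892-6730462, minus strand), a zinc-finger protein gene, was at 189, 113 and 118 TPM in ESCs and at 56.6, 46.4 and 60.6 TPM in EpiLCs. ESC replicate 1 was the highest, and the groups did not overlap. The log2 fold change was -1.41 (SE 0.21, adjusted p = 0.00233). Usp29, a deubiquitinase gene that starts head to head with Peg3, was at 1.80, 0.83 and 1.08 TPM in ESCs and at 0.63, 0.43 and 0.72 TPM in EpiLCs. It fell by 1.11 (SE 0.35, adjusted p = 0.0371), also with ESC replicate 1 highest, and was called in 8 of 14 alternatives (adjusted p between 0.0124 and 0.116). Zim1, a further zinc-finger gene, was at 1.98, 2.30 and 1.97 TPM in ESCs and at 0.42, 0.47 and 0.46 TPM in EpiLCs. Its libraries were tight within each group, and the log2 fold change was -2.26 (SE 0.21, adjusted p = 3.84e-04). On the log2(TPM + 1) scale, which shrinks the changes of low genes, limma gave -1.09 for Zim1 and -0.47 for Usp29.

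Because Peg3 and Usp29 are divergent neighbours that were both lower, the sequence between their annotated spans is shown (chr7:6730463-6730558, plus strand, GRCm38.p6). It is 96 bases long and holds 3 CpG dinucleotides, given in capitals.
Peg3-Usp29 interval: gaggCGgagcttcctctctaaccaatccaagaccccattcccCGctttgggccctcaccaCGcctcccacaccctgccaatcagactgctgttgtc

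On chromosome 6 the paternally expressed pairs Peg10 with Sgce and Mest, whose partner Copg2 is maternal, had no called gene. Peg10, a retrotransposon-derived gene needed in the placenta, was at 390.2, 420 and 183 TPM in ESCs and at 253, 194 and 222 TPM in EpiLCs. ESC replicate 3 was below all EpiLC libraries while the other ESC libraries were above them. Its log2 fold change was -0.62 with a 95% interval from -1.30 to 0.06 (adjusted p = 0.120). It was called in 2 of 14 alternatives, by DESeq2 with all libraries (adjusted p = 0.0422) and without ESC replicate 3. Without ESC replicate 3 the value was -0.90 (adjusted p = 0.00187, the lowest over the alternatives, which reached 0.283). Sgce, which encodes a sarcoglycan, was at 19.4, 21.2 and 12.5 TPM in ESCs and at 18.8, 16.3 and 20.4 TPM in EpiLCs. The groups overlapped, with a log2 fold change of 0.02 (95% interval from -0.47 to 0.51). Mest, a hydrolase-family gene of mesoderm, was at 277, 246 and 270.2 TPM in ESCs and at 318, 303 and 373 TPM in EpiLCs. Every EpiLC library was above every ESC library, yet its log2 fold change of 0.28 (SE 0.10) missed the threshold (adjusted p = 0.0528), and it was called in 6 of 14 alternatives (adjusted p between 0.0218 and 0.119). Copg2, a coatomer subunit gene, was at 32.9, 27.6 and 39.4 TPM in ESCs and at 27.0, 28.0 and 28.0 TPM in EpiLCs, at -0.32 on the log2 scale (adjusted p = 0.0911). Without ESC replicate 2 Copg2 was called, at -0.44 (adjusted p = 0.0115, with up to 0.221 over the alternatives).

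The Snrpn-Ube3a domain on chromosome 7 corresponds to the human region of Prader-Willi and Angelman syndromes. Snrpn, which encodes a small nuclear ribonucleoprotein, was at 89.0, 75.5 and 92.4 TPM in ESCs and at 329, 314 and 317 TPM in EpiLCs. The groups were far apart relative to their spread, at a log2 fold change of 1.85 (SE 0.09, adjusted p = 5.24e-05). Its expected counts were not whole in 6 of 6 libraries, and the overlapping Snurf reading frame (1.83, SE 0.09) had almost the same levels, so the reads of these names cannot be told apart. Magel2 (chr7:62376979-62381640, plus strand), a single-exon gene of the MAGE family, was at 2.01, 0.81 and 1.09 TPM in ESCs and at 17.3, 15.4 and 12.8 TPM in EpiLCs. The lowest EpiLC library was far above the highest ESC library. Its log2 fold change of 3.48 (SE 0.32, adjusted p = 3.47e-04; 2.84 on the log2(TPM + 1) scale) was the largest rise among the members in the count fit. Ndn, a related MAGE gene close by, was at 15.4, 29.0 and 11.2 TPM in ESCs and at 37.3, 31.1 and 35.4 TPM in EpiLCs. All EpiLC libraries were above all ESC libraries, but ESC replicate 2 was close to them. With all libraries its log2 fold change was 0.86 (SE 0.32, adjusted p = 0.0654). Ndn was called in 4 of 14 alternatives, with all libraries by DESeq2 (adjusted p = 0.0177) and by limma on log2(TPM + 1) and log2(TPM + 0.1) (adjusted p = 0.0373 and 0.0349). Without ESC replicate 2 the log2 fold change was 1.33 (adjusted p = 0.00124, with up to 0.176 over the alternatives). Mkrn3, a zinc-finger ubiquitin ligase gene, had 3 ESC libraries between 3.90 and 4.12 TPM and 3 EpiLC libraries between 5.03 and 5.46 TPM, at 0.36 on the log2 scale (adjusted p = 0.0820). It was called in 1 of 14 alternatives, limma on log2(TPM + 1) (adjusted p between 0.0476 and 0.223 over the alternatives). Ube3a, a ubiquitin ligase gene whose maternal expression is known from neurons, was at 59.7, 59.2 and 59.1 TPM in ESCs and at 68.0, 73.2 and 67.0 TPM in EpiLCs. Its log2 fold change of 0.18 (SE 0.05) was the smallest called (adjusted p = 0.0328) and was called in 9 of 14 alternatives (adjusted p between 0.0169 and 0.112).

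The bases just before the annotated start are shown for Magel2, Nnat and Nap1l5, the members that rose most, with CpG dinucleotides in capitals. They are the 250 bases before the start in RefSeq on GRCm38.p6, read along the gene's strand. The coordinates are chr7:62376729-62376978 (plus strand) for Magel2, chr2:157559828-157560077 (plus strand) for Nnat and chr6:58907127-58907376 (minus strand) for Nap1l5.
Magel2 upstream: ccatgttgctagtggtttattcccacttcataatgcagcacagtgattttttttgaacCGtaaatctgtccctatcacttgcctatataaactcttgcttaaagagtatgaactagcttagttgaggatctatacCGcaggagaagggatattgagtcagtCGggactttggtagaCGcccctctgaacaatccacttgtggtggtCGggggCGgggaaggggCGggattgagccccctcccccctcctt
Nnat upstream: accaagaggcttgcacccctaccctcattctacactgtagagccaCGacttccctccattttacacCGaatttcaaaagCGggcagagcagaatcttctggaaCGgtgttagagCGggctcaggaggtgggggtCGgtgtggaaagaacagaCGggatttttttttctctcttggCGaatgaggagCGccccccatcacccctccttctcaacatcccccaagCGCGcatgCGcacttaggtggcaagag
Nap1l5 upstream: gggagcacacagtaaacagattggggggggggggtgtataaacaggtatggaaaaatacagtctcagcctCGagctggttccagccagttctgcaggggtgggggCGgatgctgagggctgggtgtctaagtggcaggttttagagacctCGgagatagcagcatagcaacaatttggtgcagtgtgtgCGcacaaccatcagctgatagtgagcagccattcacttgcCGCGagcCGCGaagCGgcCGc

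These stretches held 7 CpG for Magel2, 12 for Nnat and 10 for Nap1l5. Of the 41 members, 33 had promoter windows in RefSeq, 48 windows in all, each of 300 bases (250 before and 50 after a start). The median number of CpG was 15.5 per member window and 7 over all 32851 windows. The hexamer TGCCGC, which ZFP57 recognises when it is methylated, was searched on both strands. It occurred in 14 of the 48 member windows (29.2%), from 13 genes, and in 11.6% of all windows. It contains a CpG, so windows rich in CpG hold it more often, and a match is only a string in these windows. The Nap1l5 window held 2 matches, 1 of them in the stretch printed above, the Nnat window held 1, after the printed stretch, and the Magel2 window held 0.

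Several paternally expressed genes lie within an intron or the span of another gene, often on the other strand, and are thought to have arisen by retrotransposition. Nnat (chr2:157560078-157562525, plus strand), which encodes the membrane proteolipid neuronatin, was at 18.1, 21.7 and 14.0 TPM in ESCs and at 189, 203 and 181 TPM in EpiLCs. No ESC library came near an EpiLC library, and the log2 fold change was 3.38 (SE 0.16, adjusted p = 4.97e-05), the lowest adjusted p among the members. Blcap, which surrounds it on the minus strand, was between 21.5 and 31.1 TPM in ESCs and between 18.6 and 22.7 TPM in EpiLCs and was not called (-0.28, SE 0.16, adjusted p = 0.194). Nap1l5 (chr6:58905233-58907126, minus strand), of the nucleosome assembly protein family, was at 0.83, 0.61 and 0.40 TPM in ESCs and at 6.27, 6.47 and 4.44 TPM in EpiLCs. Its groups did not overlap, and the log2 fold change was 3.18 (SE 0.32, adjusted p = 4.87e-04), or 2.05 on the log2(TPM + 1) scale. Herc3, its surrounding gene on the plus strand, was also higher, by 0.68 (SE 0.14, adjusted p = 0.00691). Mcts2, a retrogene copy of Mcts1 on the same strand as the surrounding H13, was at 68.6, 72.1 and 77.4 TPM in ESCs and at 45.4, 44.5 and 58.2 TPM in EpiLCs. It fell by 0.61 (SE 0.14, adjusted p = 0.0113) without overlap, and without EpiLC replicate 1 the adjusted p was 0.0551, the highest over the alternatives. The signal peptide peptidase gene H13 was at 19.2, 31.2 and 14.3 TPM in ESCs and at 25.7, 21.9 and 20.7 TPM in EpiLCs, with overlapping groups and a log2 fold change of -0.10 (adjusted p = 0.790).

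The remaining nested genes were not called. Peg13, a non-coding RNA inside Trappc9 on the same strand, was at 2.09, 3.95 and 1.78 TPM in ESCs and at 2.33, 2.66 and 2.89 TPM in EpiLCs. Its 95% interval ran from -0.76 to 0.71 on the log2 scale, whereas Trappc9 was lower (-0.66, SE 0.12, adjusted p = 0.00512). Zrsr1, a retrogene related to a splicing factor gene, was at 12.8, 12.0 and 12.7 TPM in ESCs and at 12.2, 12.0 and 12.5 TPM in EpiLCs. Commd1, the copper and NF-kB regulator gene around it on the opposite strand, was at 129, 124 and 135 TPM in ESCs and at 127, 125 and 118 TPM in EpiLCs. The groups overlapped for both, and these were among the most precise members, with 95% intervals from -0.27 to 0.11 for Zrsr1 and from -0.29 to 0.05 for Commd1.

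**Figure D3:**
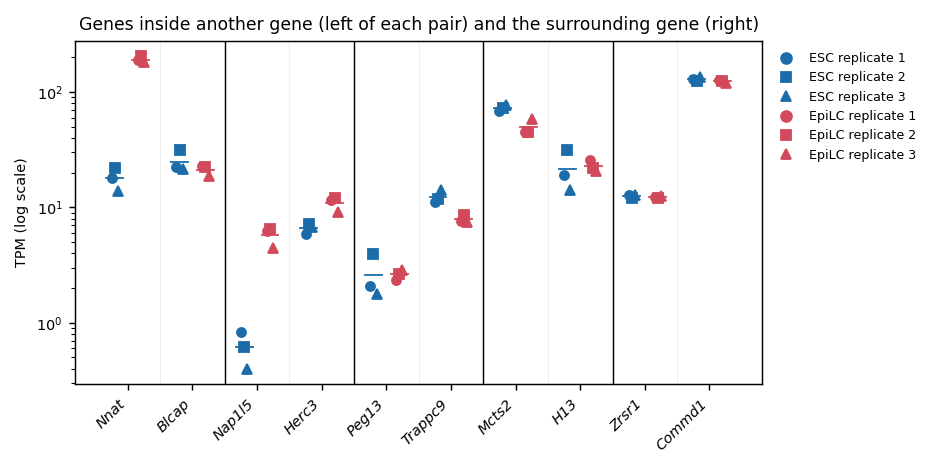
Level in TPM (y axis, log scale) in each of the 6 libraries of 5 imprinted genes that lie inside another gene, each followed by its surrounding gene; symbols give the replicate and lines the group means. Nnat rose from 21.7 TPM or less to 181 TPM or more while Blcap stayed between 18.6 and 31.1 TPM in all libraries.

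At the Gnas locus on chromosome 2, Gnas, which encodes the stimulatory G protein alpha subunit, was the most abundant member. It was at 466, 497 and 304 TPM in ESCs and at 648, 592 and 497 TPM in EpiLCs. The lowest EpiLC library was barely above the highest ESC library, and the log2 fold change of 0.41 (SE 0.18) was not called (adjusted p = 0.108, with 1 of 14 alternatives calling it). Nespas, the paternal antisense RNA of the locus, was at 1.21, 1.48 and 1.44 TPM in ESCs and at 3.39, 4.02 and 3.71 TPM in EpiLCs. It was higher by 1.38 (SE 0.20, adjusted p = 0.00200), with no overlap between the groups.

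Single imprinted genes of other loci went in either direction or were not called. Zdbf2, a zinc-finger gene whose paternal expression is programmed in the early embryo, was at 42.9, 36.6 and 44.3 TPM in ESCs and at 67.2, 70.1 and 46.4 TPM in EpiLCs. EpiLC replicate 3 was close to the ESC libraries. The log2 fold change of 0.51 (SE 0.16, adjusted p = 0.0340) was called in 9 of 14 alternatives (adjusted p between 0.00599 and 0.112) and not without ESC replicate 2 (0.43, adjusted p = 0.0686). Inpp5f, an inositol phosphatase gene, was at 17.0, 13.6 and 13.7 TPM in ESCs and at 24.0, 24.3 and 24.6 TPM in EpiLCs. The groups did not overlap, with a log2 fold change from counts of 0.48 (SE 0.10, adjusted p = 0.00708). The ratio of its mean TPM was 1.65 and the fold change from counts 1.39, the TPM being scaled for the transcript lengths RSEM assigned. Plagl1, a zinc-finger transcription factor gene, was at 11.6, 16.8 and 8.28 TPM in ESCs and at 5.39, 7.0 and 4.11 TPM in EpiLCs. It fell by 1.20 (SE 0.29, adjusted p = 0.0136), and without EpiLC replicate 1 the adjusted p was 0.0531, the highest over the alternatives. Its ESC libraries ranked as in the fibroblast marker sum, and without ESC replicate 2 the log2 fold change was -0.91.

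Grb10, an adaptor protein that restrains growth factor signalling, was at 76.4, 130.3 and 70.1 TPM in ESCs and at 105, 112 and 107 TPM in EpiLCs. ESC replicate 2 was above all EpiLC libraries and the other ESC libraries were below them. With all libraries the log2 fold change was 0.18 (adjusted p = 0.528). Without ESC replicate 2 it was 0.51 and called (adjusted p = 9.78e-04, with up to 0.916 over the alternatives). Impact, a regulator of translation, was at 195, 209.8 and 192 TPM in ESCs and at 224, 210.2 and 194 TPM in EpiLCs. The groups overlapped, and its 95% interval ran from -0.14 to 0.18. Rasgrf1, a RAS exchange factor gene, had 0, 1 and 0 expected counts in ESCs and 4, 5 and 2 in EpiLCs and did not pass the filter.

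The fibroblast markers were uneven between the ESC libraries, and the members were set beside them. All 13 tested fibroblast markers had the order replicate 2, then 1, then 3 in ESCs. On log2 CPM, 15 of the 38 members had that order (39.5%, against 24.4% of all genes tested), and in TPM 18 did (47.4%, against 26.0%). Of the called members, H19, Slc22a18, Plagl1, Meg3, Rian, Mirg and Nnat had it on both scales and Igf2 and Zim1 in TPM alone. Among the 18 members with the order in TPM, the ratio of ESC replicate 2 to ESC replicate 3 was highest for Dlk1 (3.10) and Ndn (2.60), which were not called, and for H19 (2.54), which was lower in EpiLCs. Of the 21 called members, 20 were called without ESC replicate 2 as well, 10 of 11 higher and 10 of 10 lower, the exception being Zdbf2. A further 4 were called without it, namely Ndn and Grb10 as higher and Copg2 and Kcnq1ot1 as lower. The part of fibroblast RNA in these values was not tested.

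**Figure D4:**
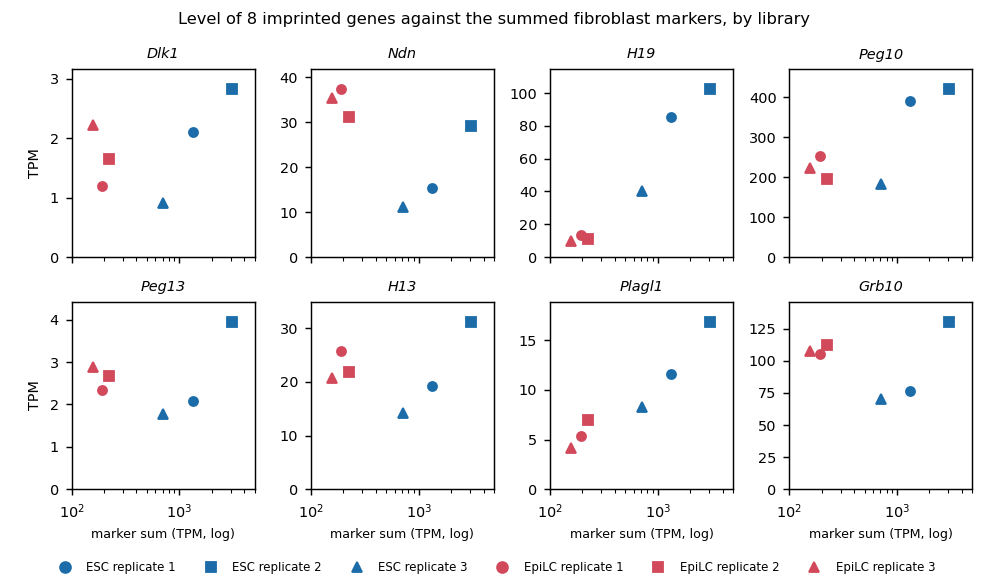
Level in TPM (y axes, from 0) of the 8 members with the fibroblast marker order in ESCs and the highest ratio of ESC replicate 2 to ESC replicate 3, against the summed TPM of 15 fibroblast markers (x axes, log scale), with 1 point per library. Marker sums were between 157 and 225 TPM in EpiLCs and reached 3060 TPM in ESC replicate 2. That each of the 8 genes had its highest ESC level in that library follows from how they were chosen.

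**Figure D5:**
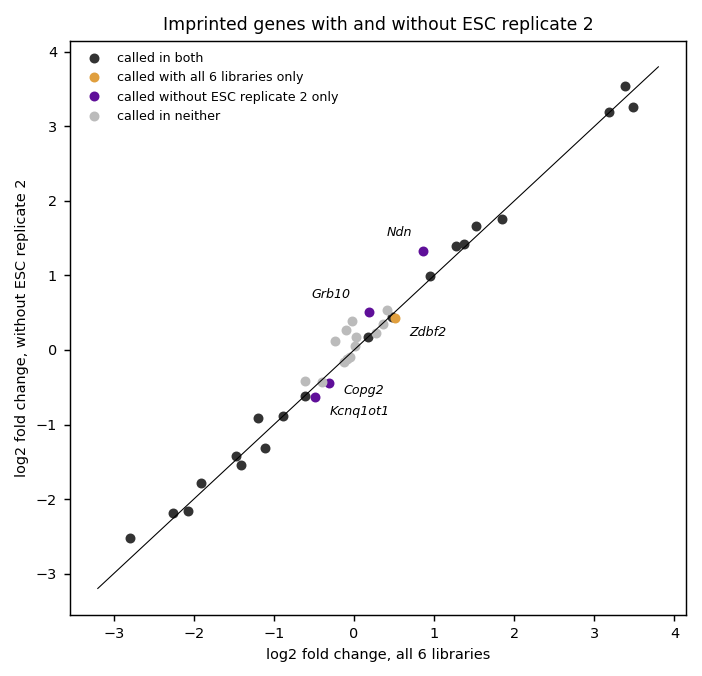
Log2 fold change of the 38 tested members without ESC replicate 2 (y axis) against that with all 6 libraries (x axis), coloured by whether the gene was called; the line marks equal values. Ndn moved from 0.86 to 1.33 and Grb10 from 0.18 to 0.51, and 20 genes were called in both.

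A further list held 20 genes known to set up, keep or remove imprints or to silence imprinted alleles. It was chosen for known function, with earlier results of these data known. All 20 were tested, 6 were higher and 10 lower (30% and 50%, against 22.6% and 22.8% of all genes). Among the proteins that protect imprints, Zfp57, the zinc-finger protein that binds methylated control regions, was at 155, 193 and 162 TPM in ESCs and at 40.9, 45.2 and 38.4 TPM in EpiLCs. It fell by 2.03 (SE 0.11, adjusted p = 7.62e-05) without overlap. Zfp445, a zinc-finger protein with the same task, was at 40.9, 37.8 and 38.1 TPM in ESCs and at 59.6, 60.6 and 56.7 TPM in EpiLCs, higher by 0.55 (SE 0.06, adjusted p = 5.36e-04). Their partners Trim28 (-0.29) and Setdb1 (-0.29) were lower by less, and so was Uhrf1 (-0.23), which guides DNMT1 to replicated DNA. Dppa3, which shields maternal methylation in the zygote, fell by 2.38 (SE 0.63, adjusted p = 0.0204), with ESC libraries between 40.3 and 129 TPM and EpiLC libraries between 7.43 and 25.8 TPM.

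Enzymes of DNA methylation changed in both directions. The de novo methyltransferase gene Dnmt3b, also among the EpiLC markers, was between 215 and 290 TPM in ESCs and between 1535 and 1660 TPM in EpiLCs (2.54, SE 0.13, adjusted p = 5.89e-05). Dnmt3a was higher by 1.19 (SE 0.16), while their cofactor Dnmt3l fell by 2.26 (SE 0.22). Of the TET enzymes, which oxidise methylated cytosine, Tet1 (-1.48) and Tet2 (-4.19) were lower and Tet3 was higher (1.22). Dnmt1, which copies methylation after replication, was not called (-0.19, adjusted p = 0.170). Ctcf, the boundary protein of the H19/Igf2 domain, was higher by 0.24 (SE 0.07, adjusted p = 0.0379), as was Arid4b by 0.20 (adjusted p = 0.0480). The calls of Ctcf, Arid4b and Uhrf1 (adjusted p = 0.0423) were near the threshold, and without EpiLC replicate 1 or 2 the called genes of this list numbered 11 in place of 16. Eed, a Polycomb subunit, was lower by 0.99 on the log2 scale, and Zfp42, an ESC marker too, fell by 4.40.

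Of a further list of imprinted genes or neighbours in imprinted domains, 37 had a row and 29 were tested. Of these 29, 7 were higher and 11 lower (24.1% and 37.9%, against the same 22.6% and 22.8%). The 7 include Snurf, whose reads cannot be told apart from those of the member Snrpn. Calcr, the calcitonin receptor gene near Peg10, was between 0.69 and 0.79 TPM in ESCs and between 22.3 and 24.4 TPM in EpiLCs, a rise of 4.94 (SE 0.12, adjusted p = 6.45e-06). Beside Grb10, the actin nucleator gene Cobl was between 73.7 and 108 TPM in ESCs and between 7.77 and 10.2 TPM in EpiLCs and fell by 3.39 (SE 0.17). Ddc, on the other side of Grb10 and coding for a decarboxylase of dopamine synthesis, fell by 2.44 (SE 0.26), from 12.1 to 2.32 TPM in the group means. Thus Cobl and Ddc were lower in the neighbourhood of Grb10, which itself was not called with all libraries. Dio3, the thyroid hormone deiodinase gene at the end of the Dlk1-Meg3 domain, was not called (0.33, adjusted p = 0.308). Other called genes of at least 10 TPM in a group were Atp10a (0.78), Casd1 (0.50), Cd81 (-0.67), Gab1 (-0.62), Smoc1 (-0.81), Sfmbt2 (-0.59), Ago2 (-0.49) and Slc38a4 (-0.46).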

How the data were processed

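Single-end strand-specific reads of polyA RNA were trimmed with cutadapt 1.16, mapped with STAR 2.5.2a and quantified per gene with RSEM 1.3.0 against mm10 RefSeq genes by the authors, who deposited RSEM expected counts (not normalized, reads of several genes divided between them) and TPM. Expected counts were rounded, normalized by TMM, filtered with filterByExpr and tested with edgeR 4.0.16 (quasi-likelihood, R 4.3.3, Benjamini-Hochberg adjustment, no covariate), after the procedure was tested on simulated data. SE is the log2 fold change divided by the square root of F, with t-based 95% intervals. All tests are two-sided. Members and lists, including markers, were chosen with earlier results of these data known. Every member is named. Values in every library are given for those called or with at least 10 TPM in a group. They are also given for some other members, chosen after their values were seen. Of the regulators and the further list, called ones of at least 10 TPM in a group are named, and a few others. Cell type markers are given as counts and sums, with a few named after their values were seen. Alternatives were DESeq2 1.42.0, other scalings and filters, limma 3.58.1 on log2(TPM + 1) and log2(TPM + 0.1), a replicate block and leaving out each library. Positions and sequences are from RefSeq on GRCm38.p6, where Nespas was found under a synonym. The culture methods of the study give a longer time for EpiLCs than the labels, which were followed. One listed gene (Zfp264) was not analysed here.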

Additional observations from a re-analysis of the deposited data

How the results depend on the processing

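All 21 called members kept their sign under every alternative, and 16 were called under every alternative that tested them. The members called higher numbered between 9 and 14 and those called lower between 7 and 12, within 1.5 times of the 11 and 10 reported. Over all genes, leaving out EpiLC replicate 1 lowered the calls from 3267 higher and 3304 lower to 2144 and 2100. Fold changes of called members moved by over 1.5 times only with limma on log2(TPM + 1), for Slc22a18, Usp29, Zim1, Magel2 and Nap1l5. Signs changed only in members that were not called. With limma on log2(TPM + 1) and log2(TPM + 0.1), Cdkn1c was at 0.0403 and 0.0441, Peg13 at 0.0523 and 0.0887 and H13 at 0.14 and 0.15. Peg13 was at 0.0046 with upper-quartile scaling. When single libraries were left out, log2 fold changes ran from -0.228 to 0.205 for Cdkn1c, from -0.563 to 0.123 for Dlk1, from -0.165 to 0.169 for Sgce, from -0.0319 to 0.0650 for Impact, from -0.231 to 0.389 for Peg13 and from -0.317 to 0.270 for H13. For these sign changes the cause was not tested.

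When the replicate number was added as a block, 11 members were higher and 10 lower, Ube3a (adjusted p = 0.0775) and Zdbf2 (0.0584) no longer being called and Mest (0.0285, between 0.0218 and 0.119 over its alternatives) and Gnas (0.0190, up to 0.276) being called. Peg13 was then at 0.0404. Deviations of same-numbered libraries from their group means correlated at 0.0067, 0.19 and 0.17 across genes, and not every library correlated best with its own number, so the numbers were not taken to pair the samples. Of the regulators 16 were called, 15 with the block and between 11 (without EpiLC replicate 1 or 2) and 17 over all alternatives. Of the further list of imprinted genes or neighbours 18 were called, 18 with the block and between 14 (without EpiLC replicate 1 or 3) and 20 over all alternatives. Depth limits Airn, Rtl1 and Rasgrf1, which were tested only without the filter, where edgeR gave adjusted p = 0.505, 0.684 and 0.124, and by DESeq2, which gave an adjusted p for Airn alone (0.555).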
